A study of Bactrocera dorsalis with 16 samples.

Results

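This report compares, on day 9 of age, the ovary and the fat body of adult female Bactrocera dorsalis, the oriental fruit fly. The members are the 2 ovary and 2 fat body libraries whose titles and table columns name that tissue and age, 4 of the 16 mRNA libraries of the study. The other 12 libraries hold the same tissues at days 1, 5 and 13, again with 2 libraries in each group, and they enter only to measure the spread of each gene and to test how far day 9 differs from the other ages. All groups are laboratory-reared females fed yeast extract and sugar. The labels name no treatment, strain, mating status or number of animals pooled in a library. The design text speaks of biological replicates without naming separate cages, so a p-value here measures only the spread between these libraries.

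Female flies make eggs by moving nutrients from one organ into another. The fat body, which serves an insect as liver and adipose tissue at once, secretes yolk proteins, lipid carriers and immune peptides into the blood. In the ovary, germ cells grow into oocytes inside a layer of follicle cells, which in higher flies also make yolk proteins and later secrete the vitelline membrane and the chorion, the layers of the eggshell. The yolk proteins of higher flies, annotated here as vitellogenins, are related to lipases and not to the large vitellogenins of other insects, as known from Drosophila.

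Levels are FPKM as the authors deposited them, a fragment count divided by the length of the transcript and by the size of the library. Differences are ovary minus fat body on the log2(FPKM + 1) scale with their standard error (SE), so a positive value is a higher level in the ovary, and this scale understates the change of low genes. Read counts were not used here and the depth of the libraries is unknown. By the most common ratio of low values, the 4 libraries lay between 0.835 and 1.04 of the depth of ovary replicate 1. The FPKM values summed to 310629 and 321833 in the ovary libraries and to 386721 and 405928 in the fat body libraries. Pairs of values are given in the order of replicates 1 and 2. Between 7745 and 8100 genes reached 1 FPKM in a library. Computed over genes, which are no independent replicates, the ovary libraries correlated at r = 0.961 and the fat body libraries at 0.954.

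Most genes differed between the organs at day 9. Of 10213 genes tested with limma, 6955 (68.1%) passed a Benjamini-Hochberg adjusted p of 0.05, of which 4536 (44.4% of the genes tested) were higher in the ovary and 2419 (23.7%) were lower. The ovary-high genes were many and moderate, with a median difference of 1.66, and the fat-body-high genes were fewer and steeper, with a median of -1.94. Among genes that passed, 35 were at least 32-fold higher in the ovary and 214 at least 32-fold lower. The median over all genes tested was 0.43 and depends on scaling: it was -0.02 after median-of-ratios scaling, where 3288 genes were higher and 3320 lower. List medians below are therefore read against 0.43, and list counts against 44.4% higher and 23.7% lower. No statement on the balance of directions is made beyond the counts above. Where values of single genes below are said not to overlap between the organs, this only describes them. The share of all genes without overlap is not given here. The plot of levels in both organs shows yolk genes near the line of equal level, eggshell and cell cycle genes above it, and immune, odorant-binding and muscle genes below it.

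**Figure D1:**
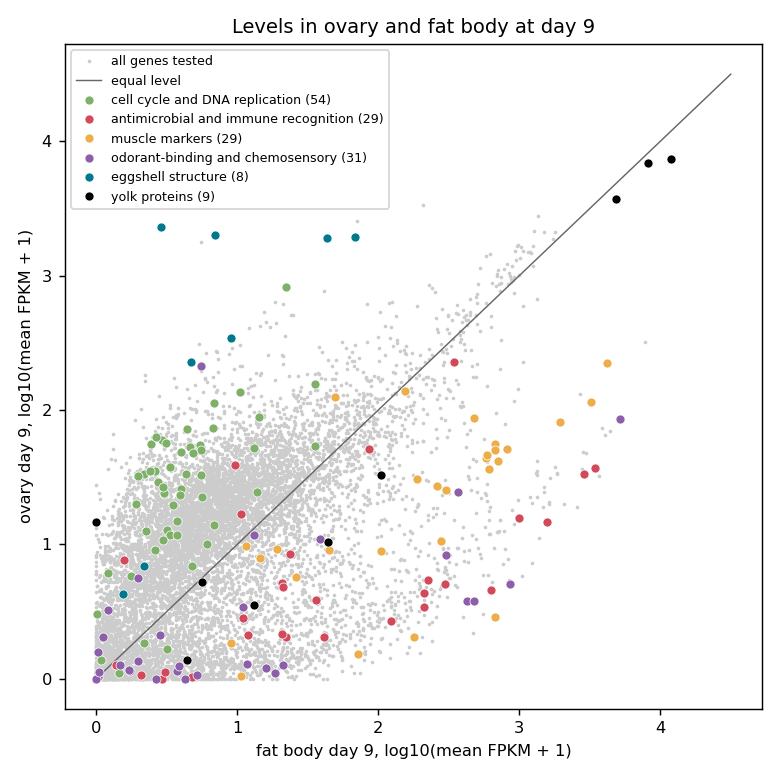
Mean FPKM + 1 of each gene tested in the 2 fat body libraries (x axis) and the 2 ovary libraries (y axis) at day 9, both as log10, with 6 gene lists coloured and their number of tested genes in the legend. The 3 abundant yolk genes lie close to the line of equal level, whereas chorion protein S36 is at 1434 and 3193 FPKM in the ovary and 0.293 and 3.43 FPKM in the fat body.

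The labelled tissues were checked against markers. Of 8 germline markers tested, 6 were higher in the ovary and 2, both annotated as ovo, were lower, and all 6 follicle cell markers were higher in the ovary. Of 11 fat body markers tested, 8 were lower in the ovary and 1 was higher, a lipid storage droplets surface-binding protein 2 (MSTRG.2275). The larval serum proteins, storage proteins of the larval fat body, stayed under 1 FPKM in all 4 libraries. The germline markers summed to 862 and 861 FPKM in the ovary and 47.0 and 43.2 FPKM in the fat body, and the fat body markers summed to 341 and 329 FPKM in the ovary and 2317 and 2693 FPKM in the fat body. In bulk tissue, fewer cells of a type and less RNA per cell cannot be told apart.

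Other cell types also differed between the libraries. Of 29 muscle markers tested, 24 were lower in the ovary and 1 higher, and their summed level was 18283 and 15381 FPKM in the fat body, 4.73% and 3.79% of all FPKM, against 1511 and 934 FPKM in the ovary. Muscle myosin heavy chain (MSTRG.1041) stood at 995 and 635 FPKM in the fat body libraries and 56.0 and 44.4 FPKM in the ovary libraries. Cuticle and epidermis markers were lower in the ovary for 30 of 51 tested and higher for 3, and summed to 5115 and 5150 FPKM in the fat body against 827 and 825 FPKM in the ovary. Gut markers were lower for 22 and higher for 6 of 41, hemocyte markers lower for 8 and higher for 0 of 11 in the limma fit (1 higher at an unadjusted p under 0.05), oenocyte markers lower for 18 and higher for 3 of 28, and neuron markers lower for 13 and higher for 4 of 37. Of all genes tested, 23.7% were lower and 44.4% higher. Spermatheca and accessory gland markers were lower for 3 and higher for 1 of 8, and summed to 696 and 1118 FPKM in the fat body against 55.9 and 77.6 FPKM in the ovary. Much of that fat body sum was a glucose dehydrogenase (MSTRG.1021) at 608 and 635 FPKM. A serine protease inhibitor-like gene (MSTRG.2244), which was not called, was at 2.11 and 429 FPKM in the fat body. Summed levels in the fat body and ovary libraries were 3070 and 2396 against 652 and 605 FPKM for gut, 259 and 257 against 85.5 and 81.4 FPKM for hemocytes, and 1887 and 2071 against 241.9 FPKM in each ovary library for oenocytes. Much of the gut sum in the fat body was antichymotrypsin-2-like (MSTRG.4775), listed only because its name contains chymotrypsin. By that name it is an inhibitor and not a digestive enzyme. It was at 1540 and 1083 FPKM in the fat body and 40.7 and 25.0 FPKM in the ovary. Neuron markers summed to 234 and 223 FPKM in the fat body and 241.5 and 240.6 FPKM in the ovary, and 60 of their 82 members stayed under 1 FPKM in both fat body libraries. Much of these sums came from genes listed by the name synaptobrevin, of which these 2 were not called. The synaptobrevin-binding protein MSTRG.3312 was at 105 and 100 FPKM in the ovary and 54.8 and 41.3 FPKM in the fat body. Synaptobrevin (MSTRG.8726) was at 69.7 and 72.8 FPKM against 62.0 and 70.3 FPKM. The near-equal sums therefore do not show an equal share of neurons. Of the 77 gut markers, 40 stayed under 1 FPKM in both fat body libraries. The part of these cells in the differences below was not tested.

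At day 9 the ovary carried between 62.4% and 84.3% as much transcript of the abundant yolk genes as the fat body. Vitellogenin-2-like (MSTRG.3414) was at 7484 and 6253 FPKM in the ovary libraries and 8700.1 and 7595 FPKM in the fat body libraries. Vitellogenin-1-like precursor (MSTRG.3415) was at 7824 and 6939.9 FPKM in the ovary and 14189.9 and 9486 FPKM in the fat body. A further vitellogenin-1-like gene (MSTRG.10714) was at 4077 and 3368 FPKM in the ovary and 4737 and 4959 FPKM in the fat body. Each of these genes was lower in both ovary libraries than in either fat body library, without overlap, but by little. Their differences were -0.25 ± 0.15 (adjusted p = 0.171), -0.65 ± 0.23 (adjusted p = 0.0253) and -0.39 ± 0.34 (adjusted p = 0.339), and only that of MSTRG.3415 passed. Its call was lost without ovary replicate 1 (-0.74, adjusted p = 0.051), ovary replicate 2 (-0.57, adjusted p = 0.121) or fat body replicate 1 (-0.36, adjusted p = 0.215), and with quantile normalization its difference was 0.00 and the other genes turned to higher in the ovary. After median-of-ratios scaling, MSTRG.3414 and MSTRG.10714 passed as lower in the ovary. Together these genes held 6.24% and 5.15% of all FPKM in the ovary libraries and 7.14% and 5.43% in the fat body libraries.

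At days 5 and 13 the same genes were much lower in the ovary than in the fat body, whereas at day 1 the organs also lay close. At day 1 all 3 genes were scarce, at 43.2 and 38.7 FPKM in the ovary and 61.6 and 50.7 FPKM in the fat body for MSTRG.3414, and the ovary mean was 73.0% of the fat body mean for MSTRG.3414, 77.6% for MSTRG.3415 and 69.6% for MSTRG.10714. The day 9 difference was shifted from that at day 1 by 0.19 ± 0.21 (adjusted p = 0.516), -0.30 ± 0.32 (adjusted p = 0.497) and 0.11 ± 0.48 (adjusted p = 0.876), and none passed, although with quantile normalization MSTRG.3414 (0.67, adjusted p = 0.0291) and MSTRG.10714 (1.18, adjusted p = 0.0475) did. The tissue difference of MSTRG.3414 was -2.59 at day 5 and -2.18 at day 13, that of MSTRG.3415 was -2.20 and -2.45, and that of MSTRG.10714 was -2.08 and -2.10. Against day 5, the day 9 difference lay closer to the ovary by 2.35 ± 0.21 for MSTRG.3414 (adjusted p = 8.06e-05), 1.55 ± 0.32 for MSTRG.3415 (adjusted p = 0.0059) and 1.70 ± 0.48 for MSTRG.10714 (adjusted p = 0.0254). Against day 13 the shifts were 1.93 ± 0.21 (adjusted p = 0.00198), 1.80 ± 0.32 (adjusted p = 0.0145) and 1.72 ± 0.48 (adjusted p = 0.0687). With quantile normalization the shifts of MSTRG.3414 and MSTRG.3415 against day 13 were 0.038 (adjusted p = 0.964) and 0.16 (adjusted p = 0.831), so both calls against that age were lost. That of MSTRG.3415 was also lost with only the groups compared (adjusted p = 0.053), and that of MSTRG.10714 passed with the replicate block (adjusted p = 0.0441). All these shifts share the day 9 libraries. The shift of MSTRG.10714 against day 5 missed the threshold without ovary day 5 replicate 2 (adjusted p = 0.0872), fat body day 5 replicate 1 (0.0957), ovary day 9 replicate 1 (0.0787), or either fat body library of day 9 (0.0602 and 0.0574), its shift against day 13 passed without ovary day 13 replicate 1 (0.0399), and that of MSTRG.3415 against day 13 missed it without ovary day 9 replicate 1 (0.0511). In the ovary, MSTRG.3414 went from 174 and 152 FPKM at day 5 to its day 9 level and stood at 3653 and 3090 FPKM at day 13. In the fat body the same gene continued upward, from 961 and 1014 FPKM at day 5 to 15518 and 15012 FPKM at day 13.

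The remaining yolk genes were far less abundant. A vitellogenin-3-like gene (MSTRG.3977) was at 2.31 and 2.81 FPKM in the ovary and 11.3 and 13.1 FPKM in the fat body (-1.89 ± 0.18, adjusted p = 3.89e-06). A vitellogenin-1-like gene (MSTRG.3980) was lower in the ovary as well, at 29.6 and 33.6 FPKM against 149 and 57.5 FPKM (-1.52 ± 0.36, adjusted p = 0.0031), its difference was -0.85 without fat body replicate 1, and its call was lost with only the groups compared (adjusted p = 0.0544). MSTRG.10715, also vitellogenin-1-like, ran the other way, at 17.7 and 9.54 FPKM in the ovary and listed at 0 and 0.000737 FPKM in the fat body (adjusted p = 0.0142). That call was lost without ovary replicate 1 (adjusted p = 0.0736) or without either fat body replicate (0.0523 and 0.053). MSTRG.3974, MSTRG.3978 and MSTRG.3979 did not pass, and MSTRG.3979 was at 6.74 FPKM in fat body replicate 1 and 0 in replicate 2. Of the 9 yolk genes, 1 was thus higher in the ovary and 3 lower, with a median of -0.65 against 0.43 for all genes. The genes carry near-identical product names, and how reads were shared between close copies is not given in the sources used here.

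**Figure D2:**
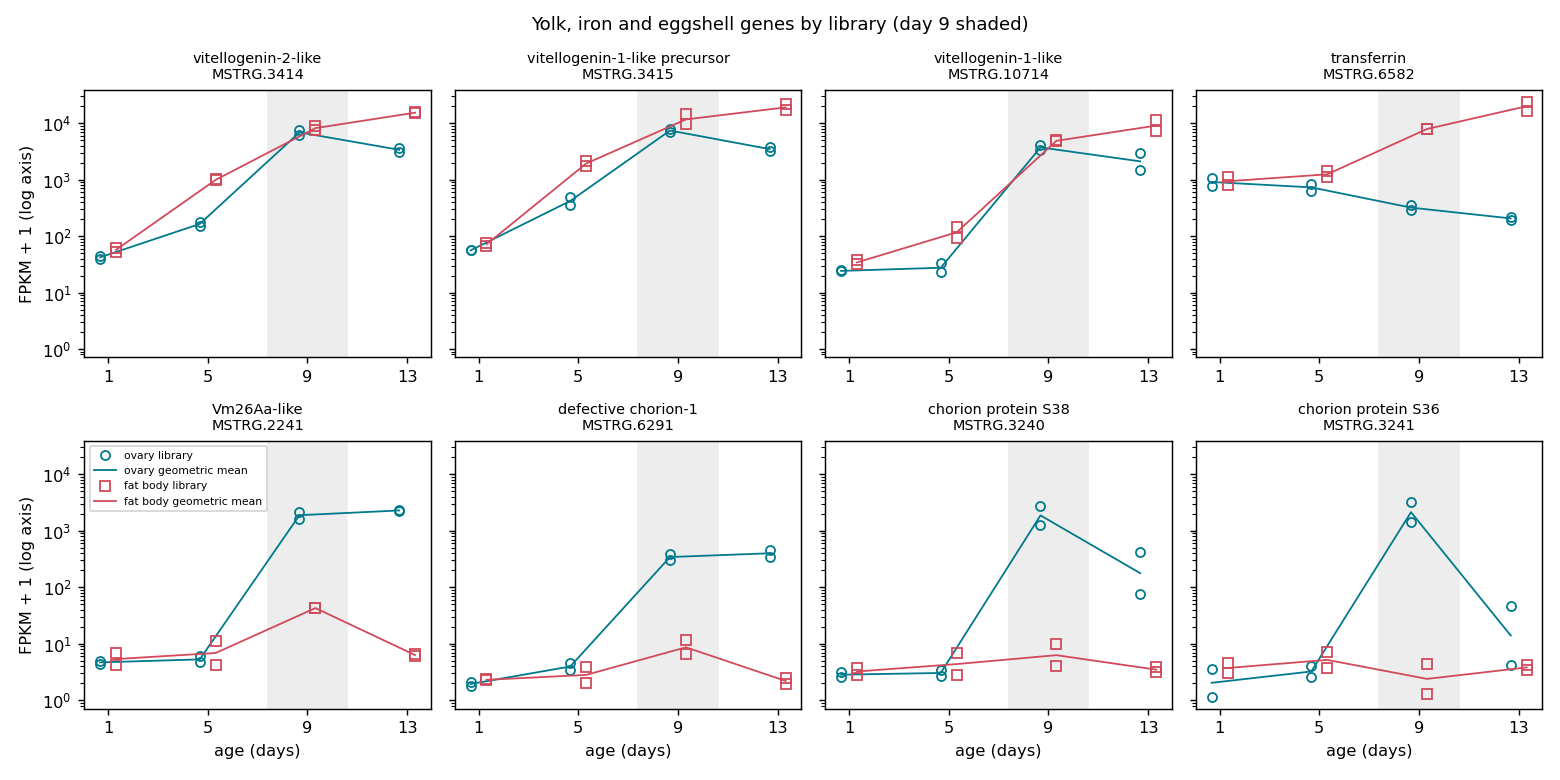
FPKM + 1 (log axis) of 3 abundant yolk genes, transferrin and 4 eggshell genes in each ovary and fat body library at days 1, 5, 9 and 13, with lines through the geometric mean of FPKM + 1 of each group and day 9 shaded. At days 1 and 9 the yolk genes lie close between the organs, transferrin is at 7935 and 7760 FPKM in the fat body, and S36 is at 1434 and 3193 FPKM in the ovary.

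Of 16 uptake genes tested, the ovary was higher for 7 and lower for 4, shares close to the 44.4% and 23.7% of all genes tested, with a median of 0.58. The gene annotated as putative vitellogenin receptor (MSTRG.8753), the oocyte's entry route for yolk, was at 434 and 384 FPKM in the ovary and 13.7 and 8.43 FPKM in the fat body, with no overlap (5.12 ± 0.45, adjusted p = 2.25e-06). Dynamin (MSTRG.10632), the GTPase that pinches off endocytic vesicles, was also higher in the ovary, at 47.2 and 46.4 FPKM against 13.7 and 10.4 FPKM. A low-density lipoprotein receptor-related protein (MSTRG.7759) was at 8.85 and 7.22 FPKM in the ovary and 380.4 and 498 FPKM in the fat body (-5.60 ± 0.24, adjusted p = 2.48e-08). Cubilin (MSTRG.5471), a receptor of nephrocytes and kidney, was at 0.209 and 0.189 FPKM in the ovary and 17.1 and 15.2 FPKM in the fat body.

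Eggshell structure had the highest median of the 25 pathway lists. Of 9 eggshell structure genes, 8 were tested and all 8 were higher in the ovary, with a median difference of 5.57, and the remaining member, Vm26Ab-like, was at 0 and 0.0775 FPKM in the ovary. The 8 tested are the 6 follicle cell markers above and the Cf2 loci named below, which encode a zinc finger protein. This list therefore repeats in large part the check of the labelled tissues. Vm26Aa-like (MSTRG.2241), a protein of the vitelline membrane, was at 2180.4 and 1638 FPKM in the ovary and 41.3 and 42.6 FPKM in the fat body (5.46 ± 0.38, adjusted p = 4.04e-07). The loci of defective chorion-1, a protein needed for eggshell assembly in Drosophila, were at 389 and 301 FPKM (MSTRG.6291) and 259 and 191 FPKM (MSTRG.6296) in the ovary libraries. The fat body libraries held 10.5 and 5.56 FPKM and 5.30 and 2.01 FPKM of them. For these vitelline membrane and early eggshell genes the ovary replicates lay closer together than for the chorion proteins.

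The chorion proteins, which follicle cells secrete late in egg formation, varied more between the ovary replicates. Chorion protein S36 (MSTRG.3241) was at 1434 and 3193 FPKM in the ovary and 0.293 and 3.43 FPKM in the fat body (9.80 ± 1.03, adjusted p = 1.04e-05). S38 (MSTRG.3240) was at 1273 and 2761 FPKM in the ovary and 8.94 and 2.98 FPKM in the fat body (8.22 ± 0.75, adjusted p = 3.28e-06). Both stood higher in ovary replicate 2 than in replicate 1, and neither overlapped with the fat body. S16 (MSTRG.3904) was at 827 and 3062 FPKM in the ovary but at 134 and 1.74 FPKM in the fat body (6.37 ± 1.78, adjusted p = 0.00855). Its call was lost without ovary replicate 2 (5.43, adjusted p = 0.0588) and without fat body replicate 2 (3.56, adjusted p = 0.0863), and with only the groups compared (adjusted p = 0.0556). Cf2 loci, which encode a zinc finger protein first described at a chorion promoter in Drosophila, were low but higher in the ovary, at 6.36 and 5.45 FPKM against 1.74 and 0.631 FPKM for MSTRG.9979 and 3.52 and 3.08 FPKM against 0.685 and 0.420 FPKM for MSTRG.9980.

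Several abundant ovary genes carried product names borrowed from unrelated organisms. The ice-structuring glycoprotein MSTRG.3908 was at 1827 and 4905 FPKM in the ovary and 1.74 and 0.0685 FPKM in the fat body (10.77 ± 1.00, adjusted p = 4.07e-06). Its 2 ovary libraries differed in the same direction as those of S36. The skin secretory protein xP2-like gene MSTRG.2533 was at 3113 and 2032 FPKM in the ovary and 79.9 and 58.4 FPKM in the fat body. Extensin-like genes, named after plant cell wall proteins, were likewise higher in ovary replicate 2 than in replicate 1, at 83.4 and 214 FPKM for MSTRG.1028 and 50.6 and 150.2 FPKM for MSTRG.7629. In the fat body they were at 4.86 and 0.442 FPKM and 1.17 and 0.991 FPKM. No role is given to these genes here.

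Enzymes that cross-link eggshell and cuticle did not follow the structural genes. A chorion peroxidase (MSTRG.6306) was at 265 and 257 FPKM in the ovary and 8.97 and 6.60 FPKM in the fat body (4.91 ± 0.26, adjusted p = 6.77e-08). A peroxidase (MSTRG.423) was also higher in the ovary, at 28.8 and 102 FPKM against 0.407 and 0.219 FPKM. However, other genes with the chorion peroxidase name were far lower in the ovary, MSTRG.777 at 5.35 and 5.84 FPKM against 217 and 306.7 FPKM and MSTRG.8817 at 1.81 and 1.11 FPKM against 64.4 and 77.3 FPKM. Tyrosine 3-monooxygenase (MSTRG.4868), which makes DOPA for catecholamines and cuticle tanning, was at 1.04 and 0.776 FPKM in the ovary and 267 and 214 FPKM in the fat body. Of 18 genes tested in this list, 2 were higher in the ovary and 14 lower, with a median of -1.75.

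Most markers of each organ were also read at a low level in the other organ. The 11 germline and follicle cell markers with an ovary mean of at least 10 FPKM had a fat body mean between 0.0805% (S36) and 12.2% (spindle-E) of the ovary mean, with a median of 2.32%. Vasa (MSTRG.707), a germline RNA helicase, was at 22.6 and 23.1 FPKM in the fat body and 503 and 520.5 FPKM in the ovary, or 4.42% and 4.51% of the ovary mean. At days 1, 5 and 13 the median of the same measure was 2.90%, 2.78% and 0.558%, over the 4, 5 and 11 markers that then reached that level. At days 1 and 5 these were germline markers only, so those medians do not cover the same genes as at day 9. From day 5 to day 9, oskar went from 1.41% to 2.24%, nanos from 3.06% to 3.43% and ovo (MSTRG.1919) from 1.80% to 2.72%. Vasa went from 2.78% to 4.47% and spindle-E from 9.52% to 12.2%. The 7 fat body markers with a fat body mean of at least 10 FPKM had an ovary mean between 0.196% and 183% of the fat body mean, with a median of 2.14%. The highest was lipid storage droplets surface-binding protein 2 (MSTRG.2275), at 283 and 272 FPKM in the ovary and 164 and 139 FPKM in the fat body, and the means of the other 6 were at or under 3.82%. Below that level, 4-hydroxyphenylpyruvate dioxygenase (MSTRG.4833), a fat body marker, was at 1.86 and 2.69 FPKM in the ovary and 4.54 and 7.85 FPKM in the fat body. For fat body markers with a fat body mean of at least 10 FPKM, the median at days 1, 5 and 13 was 12.1%, 8.76% and 1.02%. These medians cover 7, 7 and 8 markers. Markers are chosen for being high in their own organ, so low percentages follow in part from that choice, and the origin of the low levels was not tested.

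**Figure D3:**
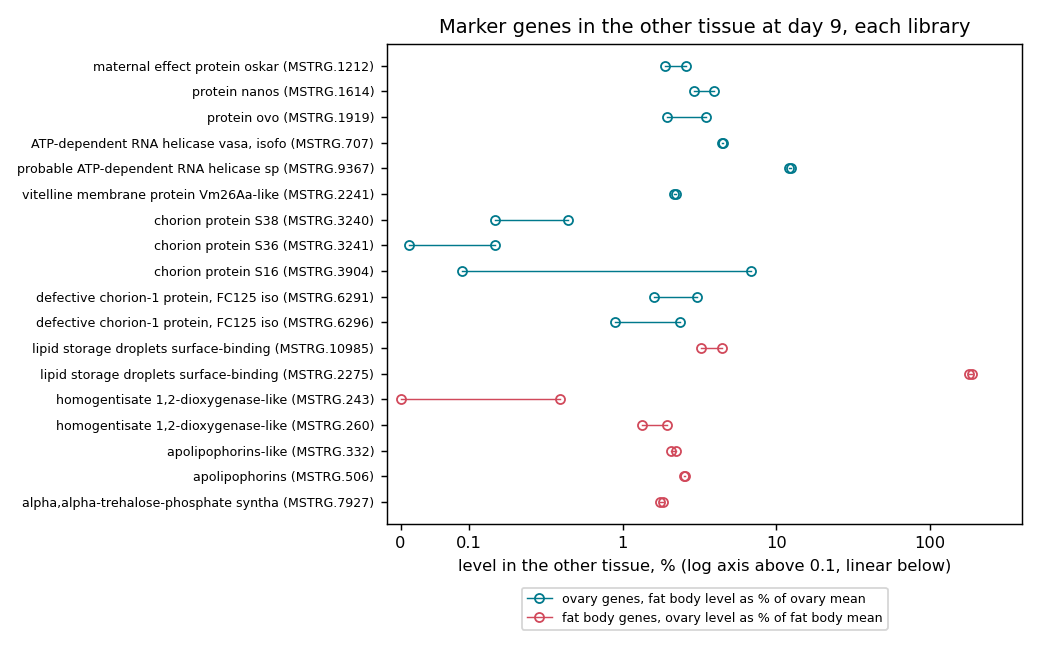
Level of each germline, follicle cell and fat body marker in the other organ at day 9 as percent of its mean in its own organ (log axis above 0.1, linear below), 1 point per library, for markers whose own organ averaged 10 FPKM or more. The median is 2.32% for ovary markers and 2.14% for fat body markers, and MSTRG.2275 is at 187% and 179%.

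Germline and cell cycle genes were higher in the ovary as groups. The germline and germ plasm list had 15 of 20 tested genes higher in the ovary (all genes 44.4%) and 2 lower (23.7%). Its median was 2.42. Oskar (MSTRG.1212), the organizer of egg germ plasm, was at 106 and 100.3 FPKM in the ovary and 2.67 and 1.94 FPKM in the fat body (4.98 ± 0.19, adjusted p = 1.87e-08). Nanos (MSTRG.1614), a translational repressor of the posterior pole, was at 102 and 85.2 FPKM against 3.69 and 2.73 FPKM, and the germline transcription factor ovo (MSTRG.1919) at 103 and 103 FPKM against 3.60 and 2.02 FPKM. The RNA-binding protein bicaudal C (MSTRG.10767) was at 282 and 258 FPKM in the ovary and 8.92 and 3.42 FPKM in the fat body (5.35 ± 0.37, adjusted p = 4.11e-07). Replicates of each of these genes lay close together in the ovary and did not overlap with the fat body. An ovo-like locus (MSTRG.775) ran the other way, at 0.268 and 0.536 FPKM in the ovary and 6.86 and 6.15 FPKM in the fat body.

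Of 54 cell cycle and DNA replication genes tested, 47 were higher in the ovary and 0 lower in the limma fit, also at an unadjusted p under 0.05, with a median of 2.65, and after median-of-ratios scaling 43 were higher and 1 lower. Cyclin B (MSTRG.8707), the mitotic cyclin that is also stored in eggs, was at 796 and 851 FPKM in the ovary and 25.5 and 16.7 FPKM in the fat body (5.25 ± 0.40, adjusted p = 7.45e-07). The M-phase inducer phosphatase (MSTRG.8854), which activates the cyclin B kinase, was at 65.9 and 58.9 FPKM against 2.22 and 1.09 FPKM. Aurora-2 kinase (MSTRG.3703), which acts at the spindle poles, was at 48.7 and 60.9 FPKM against 1.67 and 1.24 FPKM. Genes of meiosis and egg activation were higher for 6 of 7 tested, with a median of 3.36. Among them, plutonium (MSTRG.4116), which controls the first embryonic cycles in Drosophila, was at 50.9 and 76.2 FPKM against 2.18 and 2.69 FPKM. The cytoplasmic poly(A) polymerase gld-2 homolog (MSTRG.1154) was at 78.6 and 68.8 FPKM against 2.89 and 0.597 FPKM, and cortex (MSTRG.2184), a meiotic activator of protein destruction, at 27.2 and 31.7 FPKM against 1.62 and 0.899 FPKM.

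The list of maternal embryo patterning held genes of both kinds, 5 of 25 tested higher in the ovary and 16 lower, with a median of -1.13. Nudel (MSTRG.6720), the follicle cell protease at the head of the Drosophila dorsoventral cascade, was at 55.8 and 36.7 FPKM in the ovary and 1.43 and 0.591 FPKM in the fat body (4.56 ± 0.26, adjusted p = 1.17e-07). Snake (MSTRG.10432), a later protease of the same cascade, was at 25.6 and 30.1 FPKM against 1.10 and 0.836 FPKM. The maternal RNA repressor Smaug (MSTRG.10080) was at 103 and 175 FPKM against 7.75 and 4.56 FPKM. Genes annotated as easter, the last protease of that cascade, were lower in the ovary, with MSTRG.9242 at 3.22 and 2.59 FPKM against 105 and 131 FPKM and MSTRG.4311 at 6.77 and 3.75 FPKM against 156 and 165 FPKM. Proteases of this clip-domain family also act in insect blood, and which of these loci is the egg protease cannot be read from the product name.

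Ecdysteroid synthesis genes were higher in the ovary for 6 of 7 tested and lower for 0 in the limma fit, also at an unadjusted p under 0.05, with a median of 1.93 and a call count of 4 after median-of-ratios scaling. The adult ovary is a known source of ecdysteroids in flies. The mitochondrial cytochrome P450 known as shadow in Drosophila (MSTRG.1266) was at 72.4 and 73.5 FPKM in the ovary and 2.57 and 1.31 FPKM in the fat body (4.69 ± 0.25, adjusted p = 6.92e-08). The spook-like enzyme (MSTRG.603) was at 76.1 and 79.6 FPKM against 1.67 and 2.80 FPKM, and phantom (MSTRG.4969) at 37.4 and 31.1 FPKM against 1.31 and 1.09 FPKM. Of all genes tested, 44.4% were higher in the ovary and 23.7% lower.

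Ecdysone response genes were higher in the ovary for 12 of 17 tested and lower for 2, with a median of 0.95. The nuclear receptor E75 (MSTRG.6920), an early ecdysone target, was at 60.1 and 26.0 FPKM in the ovary and 0.102 and 2.60 FPKM in the fat body (4.35 ± 0.83, adjusted p = 0.000798). The orphan receptor HR78 (MSTRG.5229) was at 35.3 and 34.8 FPKM against 3.34 and 3.66 FPKM. Of 6 juvenile hormone genes tested, the ovary was higher for 3 and lower for 2, against 44.4% and 23.7% of all genes tested, and their median of 0.53 became -0.10 after median-of-ratios scaling. The hydrolases that break down juvenile hormone went in both directions. Juvenile hormone epoxide hydrolase 1-like (MSTRG.9415) was at 500.0 and 515 FPKM in the ovary and 25.2 and 22.6 FPKM in the fat body, and epoxide hydrolase 2 (MSTRG.9412) at 16.7 and 22.3 FPKM against 0.967 and 1.10 FPKM. Epoxide hydrolase 2-like (MSTRG.9416) was lower in the ovary, at 7.10 and 8.18 FPKM against 21.5 and 17.2 FPKM. Krueppel homolog 1, the transcription factor that reports juvenile hormone, has a locus higher in the ovary (MSTRG.5624, 4.79 and 4.67 FPKM against 1.90 and 1.62 FPKM) and a locus lower in it (MSTRG.1353, 5.02 and 4.06 FPKM against 15.3 and 8.26 FPKM). The call of the latter, -1.16 ± 0.34 (adjusted p = 0.0109), was lost without ovary replicate 2 (-1.03, adjusted p = 0.0631) or fat body replicate 1 (-0.75, adjusted p = 0.105), and with equal FPKM sums (-0.87, adjusted p = 0.0503).

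Insulin and TOR genes, which couple feeding to growth, were higher in the ovary for 12 of 15 tested (all genes 44.4%), with a median of 1.597. They were lower for 0 (all genes 23.7%) in the limma fit, under the other scalings and at an unadjusted p under 0.05. An insulin-like peptide receptor (MSTRG.5296) was at 220.3 and 261 FPKM in the ovary and 7.16 and 5.51 FPKM in the fat body (5.05 ± 0.26, adjusted p = 6.12e-08). A gene annotated as insulin receptor (MSTRG.2608) was at 64.8 and 89.5 FPKM against 11.03 and 7.59 FPKM. The regulatory subunit of phosphatidylinositol 3-kinase (MSTRG.8393), which acts below the receptor, was at 61.4 and 61.2 FPKM against 8.25 and 4.76 FPKM.

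Iron and lipid carriers marked the fat body. Transferrin (MSTRG.6582), the iron carrier of insect blood, was at 349.7 and 288 FPKM in the ovary and 7935 and 7759.6 FPKM in the fat body (-4.62 ± 0.26, adjusted p = 8.94e-08). A second transferrin (MSTRG.4096) was at 1.45 and 0.972 FPKM against 53.5 and 45.0 FPKM, and the soma ferritin precursor (MSTRG.10377), an iron storage protein, at 76.5 and 77.7 FPKM against 576 and 1002 FPKM. Melanotransferrin (MSTRG.5279), a membrane-bound relative, was higher in the ovary, at 26.6 and 28.2 FPKM against 11.03 and 8.71 FPKM. Storage proteins and iron carriers were lower in the ovary for 3 of 6 tested (all genes 23.7%) and higher for 1 (44.4%). Their median was -1.79. Apolipophorins (MSTRG.506), the core of the lipid shuttle particle of insect blood, was at 33.8 and 34.2 FPKM in the ovary and 1250.5 and 1439 FPKM in the fat body (-5.26 ± 0.24, adjusted p = 3.16e-08).

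Lipid storage and transport genes were lower in the ovary for 23 of 42 tested (all genes 23.7%) and higher for 7 (44.4%). Their median was -0.67. Fatty acid synthase (MSTRG.683) was at 8.93 and 7.87 FPKM in the ovary and 556 and 462 FPKM in the fat body (-5.76 ± 0.34, adjusted p = 1.31e-07). The lipid droplet protein LSD-1 (MSTRG.10985) was at 6.14 and 4.49 FPKM against 119 and 159 FPKM. Apolipoprotein D-like genes, small lipid-binding carriers, were at 4.09 and 2.09 FPKM against 253 and 279 FPKM for MSTRG.5117 and 0.456 and 0.592 FPKM against 63.5 and 96.6 FPKM for MSTRG.8970. An endothelial lipase (MSTRG.10106), by contrast, was higher in the ovary, at 14.1 and 19.7 FPKM against 0.359 and 0.0195 FPKM (3.91 ± 0.53, adjusted p = 6.76e-05). Oenocyte markers, which include fatty acid elongases and reductases, were 18 of 28 lower in the ovary as given above, and their part was not tested.

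Sugar and energy metabolism was lower in the ovary for 27 of 52 genes tested (all genes 23.7%) and higher for 9 (44.4%). Its median was -1.07. Trehalose-phosphate synthase (MSTRG.7927), which makes the blood sugar of insects, was at 10.7 and 11.2 FPKM in the ovary and 543 and 688 FPKM in the fat body (-5.68 ± 0.22, adjusted p = 1.90e-08). Phosphoenolpyruvate carboxykinase (MSTRG.1223), the entry enzyme of gluconeogenesis, was at 0.665 and 0.440 FPKM against 156 and 234 FPKM. Maltase A1 (MSTRG.7421), which splits maltose, was at 2.39 and 0.914 FPKM against 221 and 258 FPKM, whereas another maltase gene, maltase 2-like (MSTRG.8324), was among the abundant ovary transcripts at 3279 and 3414 FPKM against 225 and 189 FPKM (4.01 ± 0.19, adjusted p = 4.31e-08). The ovary was also higher for hexokinase-2-like (MSTRG.4743), which traps glucose in the cell, at 21.4 and 19.5 FPKM against 0.847 and 0.390 FPKM. Glycogen debranching enzyme (MSTRG.3354) was at 89.2 and 84.0 FPKM against 23.4 and 15.3 FPKM.

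Amino acid metabolism was lower in the ovary for 29 of 41 genes tested (all genes 23.7%) and higher for 8 (44.4%). Its median was -1.23. Glycine N-methyltransferase (MSTRG.898), which regulates methyl donor levels, was at 0.785 and 0.856 FPKM in the ovary and 70.9 and 103 FPKM in the fat body (-5.57 ± 0.37, adjusted p = 2.82e-07). Arginase-1 (MSTRG.5980) was at 1.04 and 1.15 FPKM against 73.2 and 75.2 FPKM. Homogentisate dioxygenase (MSTRG.243), an enzyme of tyrosine breakdown, was at 0.0917 and 0 FPKM against 20.3 and 26.5 FPKM.

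Immune genes had the lowest median of the 25 pathway lists, -2.38. Of 29 immune genes tested, 24 were lower in the ovary (all genes 23.7%) and 3 higher (44.4%). Their summed level was 10207 and 12305 FPKM in the fat body, 2.64% and 3.03% of all FPKM, against 455 and 501 FPKM in the ovary. Attacins, antibacterial peptides secreted into the blood, were the most abundant, with MSTRG.7668 at 22.4 and 49.1 FPKM in the ovary and 3076 and 3851 FPKM in the fat body (-6.65 ± 1.76, adjusted p = 0.00639). A second attacin-B-like gene (MSTRG.1100) was at 10.02 and 17.5 FPKM against 1455 and 1711 FPKM. Cecropin-1-like (MSTRG.10389), a membrane-active peptide, was at 2.99 and 4.16 FPKM against 715 and 551 FPKM (-7.11 ± 0.94, adjusted p = 6.01e-05). An attacin-A-like gene (MSTRG.9215) ran the other way at low level, 8.96 and 4.44 FPKM against 0.453 and 0.674 FPKM, as did CD109 antigen (MSTRG.9877), named after a thioester protein family, at 39.9 and 36.2 FPKM against 10.9 and 6.30 FPKM. Hemocyte markers were lower in the ovary for 8 of 11 tested, and hemocytin (MSTRG.6731), a hemocyte clotting protein, was at 12.1 and 10.7 FPKM in the fat body and 2.71 and 2.22 FPKM in the ovary. Their part in the immune difference was not tested.

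Detoxification genes were lower in the ovary for 63 of 98 tested (all genes 23.7%) and higher for 12 (44.4%). Their median was -1.66. Venom carboxylesterase-6 (MSTRG.1030), named after a venom enzyme, was at 17.5 and 25.3 FPKM in the ovary and 1146 and 1533 FPKM in the fat body (-5.91 ± 0.33, adjusted p = 8.81e-08). Cytochrome P450 4ac1 (MSTRG.7932) was at 1.73 and 1.65 FPKM against 96.2 and 98.2 FPKM, and 28d1 (MSTRG.2247) at 1.56 and 1.15 FPKM against 68.7 and 85.0 FPKM. Ovary-high members included a UDP-glucuronosyltransferase-like gene (MSTRG.10522), of the enzymes that attach sugars to small molecules, at 149 and 191 FPKM against 5.99 and 3.73 FPKM. The mitochondrial P450 12b1-like gene (MSTRG.5995) was at 23.2 and 26.7 FPKM against 0.964 and 0.859 FPKM. Gut markers moved in the same direction for 22 of 41 tested, and their part was not tested.

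Odorant-binding proteins, small carriers of hydrophobic molecules, had 31 of 93 chemosensory members pass the filter, 16 lower in the ovary and 4 higher, with a median of -1.66. The 19d-like protein MSTRG.1178 was at 4.23 and 3.96 FPKM in the ovary and 765 and 950.4 FPKM in the fat body (-7.39 ± 0.21, adjusted p = 1.60e-08). The 56d-like gene (MSTRG.2522) was at 2.38 and 3.21 FPKM against 484 and 469.9 FPKM and the 56a-like gene (MSTRG.2519) at 2.98 and 2.62 FPKM against 427 and 424 FPKM. Among the most abundant fat body transcripts, 99a-like (MSTRG.9806) was at 129 and 40.6 FPKM in the ovary and 7361 and 2973 FPKM in the fat body, a wide spread between the fat body replicates. The 19d gene MSTRG.3382 was the converse, at 216 and 207 FPKM in the ovary and 5.61 and 3.41 FPKM in the fat body (5.30 ± 0.38, adjusted p = 5.20e-07).

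The remaining steep fat-body-high genes included structural proteins. Muscle-specific actin-5 (MSTRG.7529) was at 1.87 and 1.88 FPKM in the ovary and 613 and 737 FPKM in the fat body (-7.87 ± 0.34, adjusted p = 2.48e-08). Muscle-specific actin-2 (MSTRG.5397) was at 423 and 25.4 FPKM against 4581 and 3787 FPKM, and its difference of -5.30 was -3.30 without ovary replicate 2. Adult cuticle protein 1 (MSTRG.9932) was at 10.9 and 9.44 FPKM against 1319 and 1428 FPKM, pro-resilin-like (MSTRG.5028), an elastic cuticle protein, at 2.07 and 1.65 FPKM against 484 and 315.4 FPKM, and a glycine-rich structural protein (MSTRG.8872) at 1.96 and 2.08 FPKM against 835 and 276 FPKM. CREG1-like (MSTRG.8848), a secreted glycoprotein, was at 65.2 and 71.8 FPKM against 3763 and 5071 FPKM (-5.98 ± 0.26, adjusted p = 2.91e-08). On the ovary side, the phosphatase MSTRG.9772, which acts on the tail of RNA polymerase, was at 160.0 and 183 FPKM against 3.25 and 1.81 FPKM (5.64 ± 0.49, adjusted p = 2.19e-06).

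**Figure D4:**
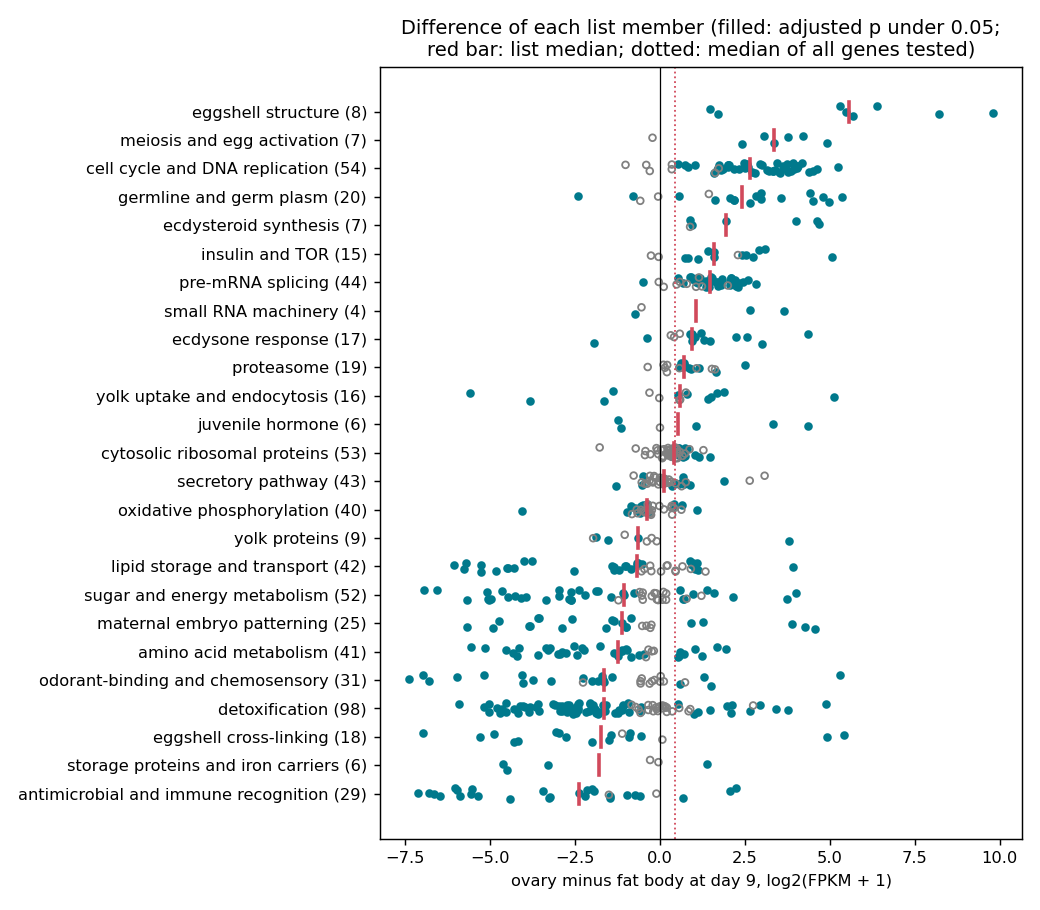
Ovary minus fat body at day 9 on the log2(FPKM + 1) scale for each tested member of 25 pathway lists, filled where the adjusted p was under 0.05, with list medians as red bars and the median of all genes (0.43) dotted. Of these lists, eggshell structure has the highest median (5.57) and antimicrobial and immune recognition the lowest (-2.38).

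Among genes that every cell uses, the ribosomal protein, proteasome and secretory pathway lists had medians near that of all genes. Several lists of such genes turned with the scaling. Their counts stand beside 44.4% higher and 23.7% lower among all genes tested. Pre-mRNA splicing kept its direction, with 34 of 44 genes higher in the ovary and 1 lower, a median of 1.46, and 27 higher after median-of-ratios scaling. The splicing factor Prp19 (MSTRG.8937) was at 41.6 and 38.3 FPKM in the ovary and 6.17 and 5.53 FPKM in the fat body (2.58 ± 0.13, adjusted p = 4.31e-08). A splicing RNA helicase (MSTRG.6551) was at 22.6 and 26.2 FPKM against 1.98 and 3.36 FPKM. Ribosomal protein genes had a median of 0.41 with 15 of 53 higher and 0 lower in the limma fit, also at an unadjusted p under 0.05, but -0.35 with 0 higher and 5 lower after median-of-ratios scaling. Proteasome genes had 10 of 19 higher with a median of 0.70, which became -0.06 under that scaling with 3 higher. Proteasome subunit beta type-5-like (MSTRG.2179), a catalytic subunit, was at 106 and 105 FPKM against 16.1 and 20.1 FPKM (2.49 ± 0.22, adjusted p = 2.72e-06).

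The secretory pathway had 10 of 43 genes higher in the ovary and 3 lower, with a median of 0.11, against 1 higher and 23 lower with a median of -0.64 after median-of-ratios scaling. The coat protein Sec24A (MSTRG.7193), which packs cargo leaving the endoplasmic reticulum, was higher in the ovary, at 15.2 and 15.1 FPKM against 4.35 and 2.61 FPKM. Oxidative phosphorylation genes had 15 of 40 lower and 4 higher, with a median of -0.38 that became 0.05 with quantile normalization. The iron-sulfur subunit of succinate dehydrogenase MSTRG.7621 was at 0.771 and 0.454 FPKM in the ovary and 24.2 and 27.9 FPKM in the fat body (-4.07 ± 0.24, adjusted p = 1.42e-07). Of 4 small RNA genes, 2 were higher and 1 lower, shares close to the 44.4% and 23.7% of all genes tested. Exportin-5 (MSTRG.10548), which carries small RNA precursors out of the nucleus in vertebrates, was at 29.4 and 41.9 FPKM against 4.05 and 5.49 FPKM. Argonaute-2, the effector of small interfering RNA, had a locus higher in the ovary (MSTRG.4804, 58.4 and 73.9 FPKM against 7.15 and 2.51 FPKM) and a locus lower in it (MSTRG.6869, 117 and 127 FPKM against 230.4 and 182 FPKM). The call of the latter, -0.75 ± 0.18 (adjusted p = 0.00304), was lost with quantile normalization (-0.023, adjusted p = 0.922) and with equal FPKM sums (-0.42, adjusted p = 0.0799).

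How far day 9 differed from the other ages was tested as the change of the tissue difference, in comparisons that share the day 9 libraries. Against day 1 the difference changed for 4171 genes (40.8%), 1854 (18.2%) toward the ovary and 2317 (22.7%) toward the fat body. Against day 5 it changed for 2687 genes (26.3%), 1026 (10%) toward the ovary and 1661 (16.3%) toward the fat body. Against day 13 it changed for 562 genes (5.5%), 178 (1.74%) toward the ovary and 384 (3.76%) toward the fat body. The day 13 count moved by over 1.5 times without ovary day 9 replicate 1 (261), ovary day 9 replicate 2 (320), fat body day 9 replicate 1 (339), ovary day 13 replicate 1 (240) or ovary day 13 replicate 2 (270). Immune genes shifted toward the fat body for 16 of 29 tested against day 1, 16 against day 5 and 4 against day 13. Muscle markers shifted the same way for 22 of 29 against day 1 and 17 against day 5, with median shifts of -2.79 and -2.24, and their median shift against day 13 was -0.03. The muscle sum in the ovary was 5397 and 4001 FPKM at day 1, 7306 and 7108 FPKM at day 5 and 1511 and 934 FPKM at day 9. In the fat body it was 7399 and 8149, 19650 and 19767, and 18283 and 15381 FPKM. The shift against day 5 thus came with a lower ovary sum and not with a higher fat body sum.

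Some eggshell genes had their highest ovary mean at day 9 and others stayed high at day 13. The change within the ovary was not tested by itself, only the change of the tissue difference. S36 was at 1434 and 3193 FPKM in the ovary at day 9, at 3.12 and 1.55 FPKM at day 5 and at 3.14 and 46.3 FPKM at day 13. Its tissue difference exceeded that at day 1 by 10.67 ± 1.46 (adjusted p = 0.000312), that at day 5 by 10.48 ± 1.46 (0.000684) and that at day 13 by 7.93 ± 1.46 (0.0164). The last call was lost without ovary day 9 replicate 2 (adjusted p = 0.0521) or fat body day 9 replicate 1 (0.0502), with only the groups compared (0.075) and with the replicate block (0.0524). The ice-structuring glycoprotein, which is given no role here, was at 53.6 and 343 FPKM in the ovary at day 13. Its shift against that age was 5.86 ± 1.42 (adjusted p = 0.0433). Vm26Aa-like stayed at 2263 and 2321 FPKM in the ovary at day 13, and as its fat body level went from 41.3 and 42.6 FPKM to 5.01 and 5.64 FPKM, its tissue difference shifted by -3.04 ± 0.53 relative to day 13 (adjusted p = 0.0138, and 0.0635 with the replicate block). In the ovary the mean of S38 went from 2017 FPKM at day 9 to 244 FPKM at day 13, and that of S16 from 1944 to 80.9 FPKM. For S38 and S16 the shift of the tissue difference against day 13 was 2.55 ± 1.05 (adjusted p = 0.211) and 2.87 ± 2.51 (adjusted p = 0.598), and neither passed.

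Smaller ovary-side shifts at day 9 involved a transcription factor and lipid enzymes. Sox-14 (MSTRG.4234), an ecdysone-induced factor in Drosophila, was at 14.2 and 31.8 FPKM in the ovary at day 9 and at 0.104 and 0.103 FPKM at day 13, while the fat body held 0.589 and 0.981 FPKM at day 9. Its tissue difference exceeded those at days 1, 5 and 13 by 2.34 ± 0.42, 3.72 ± 0.42 and 3.81 ± 0.42 (adjusted p = 0.00149, 0.000211 and 0.00198). With a pseudocount of 0.1 the shift against day 1 was 1.48 and its call was lost (adjusted p = 0.192). Sterol O-acyltransferase 1 (MSTRG.4111), which esterifies sterols for storage, was at 39.1 and 43.9 FPKM in the ovary and 4.58 and 6.45 FPKM in the fat body. Seipin (MSTRG.9722), which shapes lipid droplets, was at 21.96 and 21.8 FPKM in the ovary and 6.01 and 6.397 FPKM in the fat body. Shifts against day 13 were 1.08 ± 0.25 for the acyltransferase and 1.11 ± 0.25 for seipin (adjusted p = 0.0373 and 0.0313). The UDP-glucuronosyltransferase MSTRG.3790 was at 24.7 and 27.5 FPKM in the ovary and 6.24 and 4.43 FPKM in the fat body at day 9, and its shift against day 13 was 1.37 ± 0.29 (adjusted p = 0.0268).

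On the fat body side, both cecropins were highest at day 9 among the 4 ages. Cecropin-1-like MSTRG.10389 was at 715 and 551 FPKM in the fat body at day 9, against 31.5 and 44.9 FPKM at day 5 and 2.09 and 10.9 FPKM at day 13. A second cecropin-1-like gene (MSTRG.10390) was at 39.2 and 41.6 FPKM in the fat body at day 9 and 0.676 and 3.49 FPKM at day 13. Shifts against day 13 were -5.52 ± 1.34 and -3.40 ± 0.85 (adjusted p = 0.0433 and 0.047). The partial easter gene MSTRG.10385, a clip-domain protease, was at 65.3 and 60.5 FPKM in the fat body at day 9 and 0.280 and 0.209 FPKM in the ovary, with a shift of -4.36 ± 0.73 against day 13 (adjusted p = 0.0118). Caspase-3-like (MSTRG.5640), of the proteases of cell death, was at 29.7 and 29.4 FPKM in the fat body at day 9, against 5.16 and 6.09 FPKM at day 5 and 4.10 and 6.67 FPKM at day 13, and shifted by -2.33 ± 0.34 against day 13 (adjusted p = 0.00816). The glucuronosyltransferase 2B33 (MSTRG.4934) was at 55.6 and 59.8 FPKM in the ovary and 189.6 and 226 FPKM in the fat body at day 9. Its tissue difference was positive at day 13, where the ovary held 49.5 and 53.8 FPKM and the fat body 11.8 and 34.8 FPKM. Spidroin-2 (MSTRG.4394), a name taken from spider silk, was at 2.71 and 2.07 FPKM in the ovary and 56.8 and 70.7 FPKM in the fat body at day 9, down from 61.0 and 51.4 FPKM and 157 and 306.5 FPKM at day 5.

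Most of these calls against day 13 were lost when a single library was left out or a setting was changed. Of the 16 libraries, leaving out any of 9 ended the call of MSTRG.10389, any of 11 that of MSTRG.10390, any of 11 that of MSTRG.3908, any of 7 that of MSTRG.3790, any of 8 that of the acyltransferase and any of 9 that of seipin, with adjusted p up to 0.123, 0.152, 0.129, 0.0869, 0.105 and 0.105. The call of MSTRG.4934 ended without ovary day 9 replicate 1 (adjusted p = 0.0511) or ovary day 13 replicate 2 (0.0522), and that of spidroin-2 without ovary day 13 replicate 2 (0.0536). Sox-14, the partial easter gene and caspase-3-like kept their calls against day 13 whichever library was left out, but that of the partial easter gene was lost with a pseudocount of 0.1 (-4.35, adjusted p = 0.0666). With that pseudocount the calls of MSTRG.10389, MSTRG.10390 and MSTRG.3908 were lost as well (adjusted p = 0.0788, 0.123 and 0.137), and without the filter (0.0569, 0.0642 and 0.0571). With quantile normalization those of MSTRG.10389, MSTRG.10390 and the acyltransferase were lost (0.0767, 0.0686 and 0.0715), and with equal FPKM sums that of MSTRG.10390 (0.0516). With only the groups compared, MSTRG.10390, MSTRG.3908, MSTRG.4934, the acyltransferase and seipin missed the threshold (adjusted p between 0.0554 and 0.0916). With the replicate block these did so, and also MSTRG.10389, MSTRG.3790 and spidroin-2 (adjusted p between 0.0544 and 0.145). Against day 5, quantile normalization ended the calls of MSTRG.10389 (adjusted p = 0.0685), MSTRG.4934 (0.0638) and seipin (0.0533). With an added 2-fold threshold, 14 genes in all passed against day 13, among them Sox-14 but none of the others named here for that age.

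**Figure D5:**
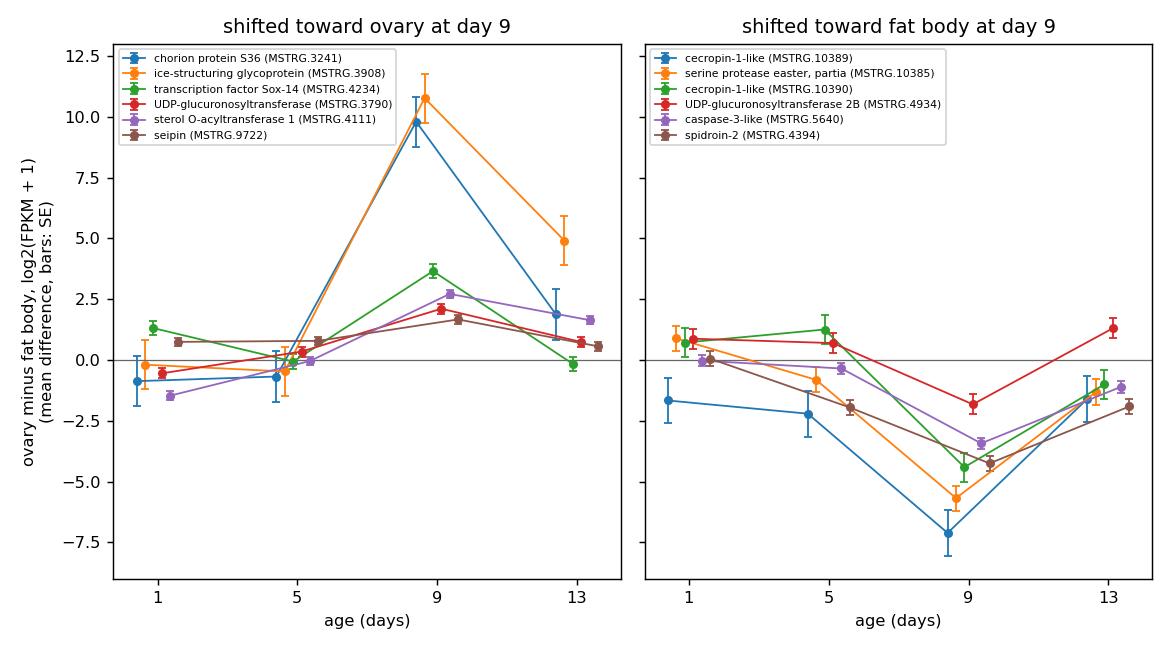
Ovary minus fat body on the log2(FPKM + 1) scale at days 1, 5, 9 and 13 for 12 genes whose day 9 difference passed the test against each other age, 6 toward the ovary (left) and 6 toward the fat body (right), with bars for the SE. Chorion protein S36 reaches 9.80 at day 9 against 1.87 at day 13, and cecropin-1-like MSTRG.10389 reaches -7.11 against -1.60.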

How the data were processed

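The deposited table holds 1 FPKM column per library for 13759 genes, made by the authors, as the file header shows. Tools listed in the submitters' processing notes, with no role or order, are Bowtie 0.12.2, HISAT2 2.0 and StringTie 1.3.0, and the genome build listed is mm8, a mouse build. The fly assembly and annotation are not given in the sources used here, so no positions or sequences are printed.

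Product names come from the description column and are printed with the identifier of the table. Of all genes, 10449 had a description, and 368 loci whose description joins several products were left out of lists and naming. Values were taken as log2(FPKM + 1), with a pseudocount of 1 and the deposited scaling. A gene entered the test when the mean of any of the 8 groups reached 1 FPKM, which 10213 genes did. All 16 libraries were fitted together in limma 3.58.1 (R 4.3.3), by a model of group means with a variance trend and robust moderation. A call is an adjusted p under 0.05 (Benjamini-Hochberg) over all genes tested. The change of the tissue difference between ages was tested as an interaction in the same fit. The fit was tested on simulated data. Python 3.11.15, pandas 2.3.3, numpy 2.4.6 and matplotlib 3.10.9 were used for tables and plots.

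The members, gene lists and rule for naming genes were chosen with earlier results of these data known, and lists were trimmed after product names, but not values, were seen. The rule took the 10 steepest genes in each direction with informative names and at least 50 FPKM, up to 3 called genes per list and direction, all yolk and eggshell genes, the vitellogenin receptor, vasa, oskar and nanos, the 8 most abundant genes of each tissue, and 6 genes in each direction whose day 9 difference passed against every other age. The text names a subset of these, mostly genes whose direction held under the alternatives, and marker genes.

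Alternative settings were a filter at 5 FPKM or none, a pseudocount of 0.1, median-of-ratios scaling, quantile normalization, equal FPKM sums, no trend or robust moderation, only the groups compared, a replicate block, an added 2-fold threshold, and each library left out.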

Additional observations from a re-analysis of the deposited data

Results flagged for a closer look

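The tissue difference at day 9 differed from that at another age for 4171 genes against day 1, 2687 against day 5 and 562 against day 13, by the interaction test of limma.

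The genes below passed that interaction test against each of the 3 other ages, and the value is the smallest of the 3 shifts on the log2(FPKM + 1) scale. Toward the ovary, the smallest shift was 7.93 for chorion protein S36 (MSTRG.3241), 5.86 for the ice-structuring glycoprotein (MSTRG.3908), 2.34 for Sox-14 (MSTRG.4234), 1.37 for a UDP-glucuronosyltransferase (MSTRG.3790), 1.08 for sterol O-acyltransferase 1 (MSTRG.4111) and 0.88 for seipin (MSTRG.9722). Toward the fat body, the smallest shift was -4.91 for cecropin-1-like MSTRG.10389, -4.36 for the partial easter gene (MSTRG.10385), -3.40 for cecropin-1-like MSTRG.10390, -2.52 for UDP-glucuronosyltransferase 2B33 (MSTRG.4934), -2.33 for caspase-3-like (MSTRG.5640) and -2.30 for spidroin-2 (MSTRG.4394). Against day 5, leaving out any of 5 libraries ended the call of MSTRG.10389 and any of 6 that of seipin, and that of Sox-14 against day 1 was lost with a pseudocount of 0.1.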

How the results depend on the processing

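Of 114 genes named with a call at day 9, 103 kept their call and direction under all 26 alternatives and 1, vitellogenin-1-like precursor (MSTRG.3415), lost its direction, at 0.00 with quantile normalization, where its shift against day 1 was 0.25. Named genes were taken largely for steep differences and mostly for a direction that held under these alternatives. The count of 103 follows in part from that choice and does not measure how firm the day 9 calls are in general. Among uncalled genes, MSTRG.3414 was at 0.18 with quantile normalization and 0.077 with equal FPKM sums, MSTRG.10714 at 0.32 with quantile normalization, MSTRG.3978 at 0.17 with equal sums, MSTRG.3979 between -2.52 and 0.44 with 1 library left out, and the shift of MSTRG.10714 against day 1 between -0.025 and 0.25.

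With an added 2-fold threshold, 3759 genes changed at day 9 (2457 higher and 1302 lower in the ovary), and the difference changed against days 1, 5 and 13 for 1203, 512 and 14 genes. The count against day 13 was 310 with only the groups compared and between 240 and 592 with 1 library left out, and the calls at day 9 lay between 6313 and 7106. Same-numbered ovary and fat body libraries correlated between 0.016 and 0.083 in their deviations, computed over genes. Whether they came from the same animals is not given in the labels and cannot be told from these values. With the replicate block the count against day 13 was 123 and at day 9 it was 6971. With 2 libraries in each group and FPKM without counts, the precision of low genes is unknown.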
